A study of Mus musculus with 6 samples.

Results

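LRRTM, neuroligin and neurexin genes encode adhesion proteins that meet across the synaptic cleft. They were followed in the hearing epithelium of the cochlea (the organ of Corti) of mice without and with pejvakin. The members were the probe sets that the platform annotation pairs with a single symbol out of Lrrtm1, Lrrtm2, Lrrtm3, Lrrtm4, Nlgn1, Nlgn2, Nlgn3, Nrxn2 and Nrxn3. All 9 genes were found, each with 1 probe set, among 19938 genes tested. Total RNA came from 3 Pjvk-/- samples (knockout) and 3 Pjvk+/+ samples (wild-type), all taken at postnatal day 15, with C57BL/6J-129/Sv as the strain background, and each was read on its own Affymetrix mouse gene ST array. Pjvk encodes pejvakin, a gasdermin-family protein needed for hearing. The labels do not describe how the allele was made, and they do not say whether a sample came from 1 animal or from several pooled animals. The p-values therefore reflect only how far these samples scatter, which could be technical scatter. Every value below is a log2 signal of a probe set as the authors deposited it, and every difference is knockout minus wild-type on that scale. The group was selected on gene symbols with the knockout and wild-type signals of these arrays already known, so the members' differences are given as a description and nothing is supported by them.

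Neurexins sit mainly in the presynaptic membrane and bind a varied set of partners on the other side of the cleft. Neuroligins and LRRTM proteins (leucine-rich repeat transmembrane neuronal proteins) are postsynaptic partners that compete for neurexins. In brain, LRRTM proteins organise excitatory synapses and help to hold AMPA-type glutamate receptors in place. In the organ of Corti, inner hair cells release glutamate at ribbon synapses onto the afferent endings of spiral ganglion neurons, and efferent fibres from the brainstem form synapses of their own.

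Markers of the labelled tissue and of glia were ranked by mean signal. The 14 hair cell markers lay between percentiles 36.2 and 95.8 (median 53.0). The 12 supporting cell markers lay between 31.4 and 99.7 (median 83.7) and the 20 neuron markers between 32.7 and 100 (median 97.0). The 9 measured Schwann cell and oligodendrocyte markers lay between 81.9 and 100 (median 94.9). The 6 astrocyte and central glia markers lay between 38.3 and 88 (median 62). A percentile ranks brightness, which depends on the probes as well as on the transcript. The targeted gene, Pjvk, read 4.42, 4.36 and 4.21 in knockout arrays, against 4.75, 5.06 and 4.96 in wild-type arrays, all knockout values below all wild-type values (adjusted p = 0.105 in limma, exact two-sided permutation p = 0.1, the smallest this design allows). Pairs of arrays correlated at 0.9937 to 0.994 within the knockout, 0.9919 to 0.9932 within wild-type arrays and 0.9913 to 0.9933 between the genotypes. Of 4 listed Y-linked genes 3 were measured, with differences from -0.40 to -0.33, and none passed the adjusted test (adjusted p between 0.241 and 0.337 in limma). The groups were apart for Kdm5d and Uty and overlapped for Eif2s3y. The mean deviations of the 3 genes from their 6-array mean were -0.09, -0.16 and -0.28 in knockout arrays, against 0.38, 0.19 and -0.02 in wild-type arrays. Astrocyte and central glia markers were high in knockout replicates 1 and 3 alone, as given below beside the genes that share that pattern.

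Lrrtm3 had the difference farthest from 0 among the 9 members, and the promoter windows below show it beside the gene it lies in and beside its relatives. On the reference assembly Lrrtm3 lies within the span of Ctnna3, the alpha-T-catenin gene, and is transcribed from the other strand. Lrrtm1 lies likewise within Ctnna2, on the other strand, and Lrrtm2 within Ctnna1, whereas Lrrtm4 lies in no protein-coding gene of that table. Alpha-catenins link cadherins to the actin cytoskeleton. The windows hold 250 bases before and 50 bases after a listed start of a gene. They are printed 5′ to 3′ from RefSeq tables on GRCm38.p6, with capitals marking CpG dinucleotides. The listed start of Lrrtm1 lies inside the gene, whose span begins at base 77229210. The windows cover Lrrtm3 (chr10:64090206-64090505, minus strand), the first of the 3 listed starts of Ctnna3 (chr10:63429848-63430147, plus strand), Lrrtm1 (chr6:77242227-77242526, plus strand) and the first of the listed starts of Lrrtm4 (chr6:80018627-80018926, plus strand).
Lrrtm3: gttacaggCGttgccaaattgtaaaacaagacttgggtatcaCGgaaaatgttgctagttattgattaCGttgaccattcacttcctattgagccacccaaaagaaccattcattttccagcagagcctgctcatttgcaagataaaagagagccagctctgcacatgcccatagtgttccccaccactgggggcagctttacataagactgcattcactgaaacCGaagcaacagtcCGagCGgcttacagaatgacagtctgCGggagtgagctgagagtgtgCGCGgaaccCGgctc
Ctnna3: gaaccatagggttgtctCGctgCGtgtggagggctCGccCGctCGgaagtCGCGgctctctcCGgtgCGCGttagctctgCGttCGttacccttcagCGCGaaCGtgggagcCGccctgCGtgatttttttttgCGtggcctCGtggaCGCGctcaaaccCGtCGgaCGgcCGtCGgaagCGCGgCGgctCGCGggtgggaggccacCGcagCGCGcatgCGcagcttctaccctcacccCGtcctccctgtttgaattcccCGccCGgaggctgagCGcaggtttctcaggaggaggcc
Lrrtm1: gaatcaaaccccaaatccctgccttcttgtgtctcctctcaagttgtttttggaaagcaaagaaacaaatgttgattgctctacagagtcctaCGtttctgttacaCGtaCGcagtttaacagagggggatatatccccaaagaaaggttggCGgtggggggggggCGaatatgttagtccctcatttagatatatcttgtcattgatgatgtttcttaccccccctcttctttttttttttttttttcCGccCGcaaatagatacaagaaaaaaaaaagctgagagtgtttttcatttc
Lrrtm4: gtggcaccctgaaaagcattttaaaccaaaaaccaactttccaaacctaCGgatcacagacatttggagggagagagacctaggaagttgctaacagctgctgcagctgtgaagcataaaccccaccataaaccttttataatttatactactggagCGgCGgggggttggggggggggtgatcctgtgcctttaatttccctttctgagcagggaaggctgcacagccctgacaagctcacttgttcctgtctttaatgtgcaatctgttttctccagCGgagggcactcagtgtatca

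The Lrrtm3 window held 10 CpG dinucleotides and 48.7% G and C, against 39 and 67.0% in the Ctnna3 window, 7 and 40.7% in the Lrrtm1 window and 4 and 48.7% in the Lrrtm4 window. Of 32851 windows of the same length, 56.5% held fewer CpG dinucleotides than Lrrtm3 and 95.6% fewer than Ctnna3, and the median was 7. On either strand, the Lrrtm3 window held no TATA box (letters TATAAA), which 13.6% of all windows hold, and no CCAAT box (letters CCAAT), which 37.4% hold. It also held no GC box (letters GGGCGG, in 35.7% of windows) and no cAMP response element (letters TGACGTCA, in 1.79%). The Ctnna3 window held the GC box at 2 places, the Lrrtm1 window held it at 1, and the Lrrtm4 window held the TATA box at 2. None of these matches overlapped another kind of motif. Windows were listed for 6 of the 9 members.

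Lrrtm3 was lower in every knockout array. Its signals were 7.51, 7.60 and 7.46 in knockout arrays, against 8.17, 8.16 and 8.07 in wild-type arrays. The groups did not overlap, and 0.47 separated the highest knockout array from the lowest wild-type array. The mean was 7.52 ± 0.07 in knockout arrays, against 8.13 ± 0.06 in wild-type arrays (SD, n = 3 each), which is a difference of -0.61 (standard error, SE, 0.06) or a 1.53-fold lower signal. The spread within the genotypes was small, with a pooled SD of 0.06. In the limma fit over all 19938 genes the adjusted p was 0.0174. Lrrtm3 was the 1 member of 9 called at an adjusted p under 0.05, where 0.0351% of all genes were called, and no member was called higher. In bulk tissue, fewer cells of a type and less RNA per cell cannot be told apart. The call ended when any array other than knockout replicate 2 was left out (adjusted p between 0.0542 and 0.14), with the difference between -0.65 and -0.58 over all 6 omissions. It ended too when the Y-linked level was a covariate, where the difference was -0.51 (adjusted p = 0.91). The mean Y-linked level was apart between knockout and wild-type arrays, so sex mix and genotype cannot be told apart in that fit.

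**Figure D1:**
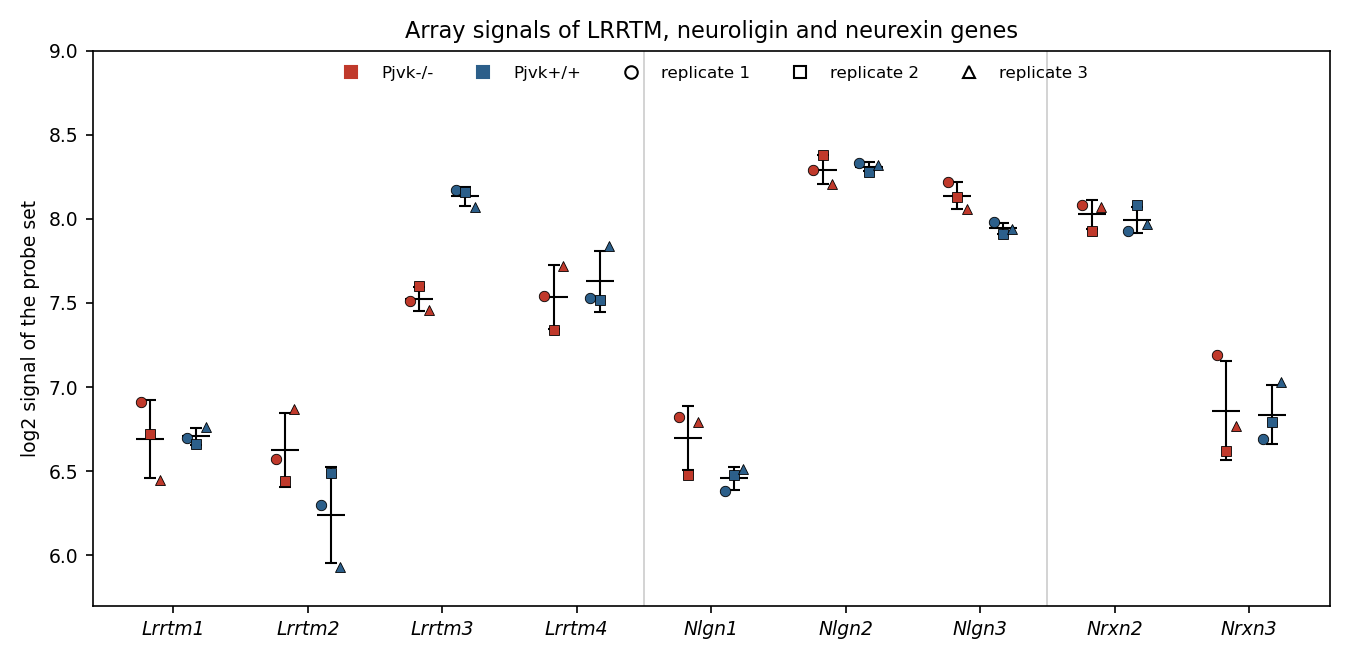
Log2 signal of each member on each array, with knockout (Pjvk-/-) left of wild-type (Pjvk+/+), symbols for replicates, and bars for mean and SD (n = 3). Lrrtm3 sits at 7.46 to 7.60 in knockout arrays, against 8.07 to 8.17 in wild-type arrays, while the genotypes overlap in every other gene but Nlgn3.

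Neuron markers differed little between the genotypes as a list. The groups did not overlap in 6 of the 20 (30%), 4 lower and 2 higher, against 17.8% of all genes. The mean deviation of the 20 neuron markers was 0.08, -0.08 and -0.02 in knockout arrays, against 0.004, -0.01 and 0.02 in wild-type arrays, and their median difference was -0.01, with 12 lower and 8 higher and none called. After each array's mean over these markers was subtracted, the Lrrtm3 difference was -0.60 (SE 0.09). Corrected for that deviation, Lrrtm3 read 7.43, 7.68 and 7.48 in knockout arrays, against 8.17, 8.17 and 8.05 in wild-type arrays, without overlap. The groups did not overlap in 7 of the 14 hair cell markers (50%), 2 lower and 5 higher, with a median difference of 0. They did not overlap in 4 of the 12 supporting cell markers (33.3%), 1 lower and 3 higher, with a median of 0.10. No gene of either list was called. The 8 vessel markers all had lower means in the knockout, with a median of -0.18, and 4 of them (50%) had non-overlapping groups. Their summed log2 signals were 63.89 to 65.16 in knockout arrays, against 65.86 to 66.05 in wild-type arrays, though none of them was called. Of the 8 melanocyte markers 5 were lower and 3 higher, with a median of -0.07, and 1 was called, the pigment enzyme gene Dct. Dct read 6.69, 6.90 and 6.32 in knockout arrays, against 8.34, 8.33 and 8.83 in wild-type arrays, a difference of -1.86 (adjusted p = 0.0115 in limma). The part of hair cell, supporting cell, vessel and melanocyte content in the Lrrtm3 value was not tested.

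The alpha-catenin genes around the nested LRRTM genes had differences close to 0. Ctnna3 read 8.53, 8.64 and 8.57 in knockout arrays, against 8.62, 8.50 and 8.66 in wild-type arrays, a difference of -0.01 (SE 0.06, adjusted p = 0.947 in limma; exact permutation p = 0.9). Its 95% interval, from -0.16 to 0.13, lies apart from that of Lrrtm3 inside it, from -0.75 to -0.47. Its groups overlapped fully, while those of Lrrtm3 were apart. Ctnna2, the neuronal alpha-N-catenin gene around Lrrtm1, differed by 0.03 (SE 0.07, adjusted p = 0.87), and Ctnna1, the alpha-E-catenin gene around Lrrtm2, by 0.02 (SE 0.06, adjusted p = 0.883). The differences of the nested genes themselves were -0.01 for Lrrtm1 and 0.39 for Lrrtm2. Lrrtm3 lies on chromosome 10 and Pjvk on chromosome 2.

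**Figure D2:**
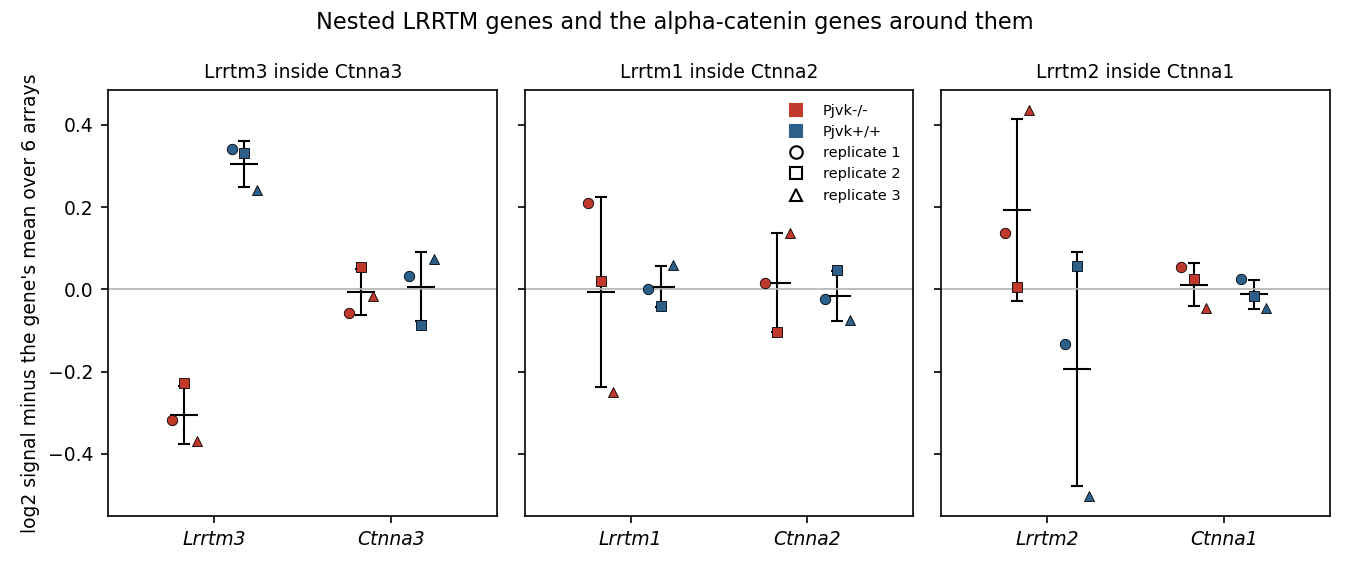
Log2 signal minus the gene's mean over the 6 arrays, for each nested LRRTM gene (left in each panel) and the alpha-catenin gene around it (right), knockout left of wild-type, bars for mean and SD (n = 3). Lrrtm3 is split by genotype, at 7.46 to 7.60 in the knockout against 8.07 to 8.17 in the wild type before centring, and Ctnna3 is not, at 8.53 to 8.64 in the knockout against 8.50 to 8.66 in the wild type.

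None of the other LRRTM genes passed the adjusted test. Lrrtm1 read 6.91, 6.72 and 6.45 in knockout arrays, against 6.70, 6.66 and 6.76 in wild-type arrays. The wild-type arrays lay inside the range of the knockout arrays, and the difference was -0.01 (SE 0.11, adjusted p = 0.969 in limma). Lrrtm4, whose protein binds heparan sulfate proteoglycans in addition to neurexins, read 7.54, 7.34 and 7.72 in knockout arrays, against 7.53, 7.52 and 7.84 in wild-type arrays, with overlapping groups and a difference of -0.10 (SE 0.12, adjusted p = 0.745 in limma). When the Y-linked level was a covariate, the Lrrtm4 value was -0.41 (SE 0.16).

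Lrrtm2, the LRRTM best known as a high-affinity neurexin ligand at excitatory synapses, had the highest positive difference of the 9 genes. It read 6.57, 6.44 and 6.87 in knockout arrays, against 6.30, 6.49 and 5.93 in wild-type arrays. The groups overlapped, because wild-type replicate 2 lay above knockout replicate 2, and the difference was 0.39 (SE 0.15, adjusted p = 0.358 in limma). Wild-type replicate 3 was the lowest array of all 6 and knockout replicate 3 the highest, and the pooled SD of 0.25 was at percentile 98.9 of all genes. With 1 array left out at a time the difference ran from 0.23 to 0.51. The 95% intervals of the fit reached from -0.25 to 0.23 for Lrrtm1, from -0.36 to 0.17 for Lrrtm4 and from 0.04 to 0.73 for Lrrtm2.

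**Figure D3:**
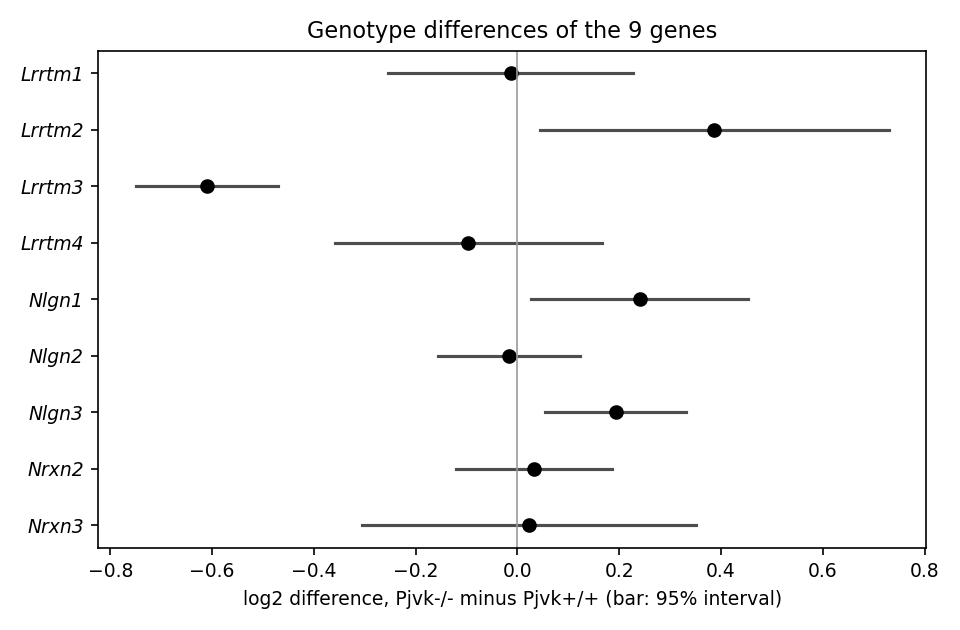
Log2 difference of each member, knockout minus wild-type, with the 95% interval of the limma fit, which is not adjusted for the number of genes. Lrrtm3 stands at -0.61, Lrrtm2, Nlgn1 and Nlgn3 at 0.19 to 0.39, and the other genes between -0.10 and 0.03.

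Among the neuroligins, Nlgn3 was the gene whose genotypes did not overlap. Nlgn3, found at excitatory and inhibitory synapses in brain, read 8.22, 8.13 and 8.06 in knockout arrays, against 7.98, 7.91 and 7.94 in wild-type arrays. All knockout arrays lay above all wild-type arrays, with a gap of 0.08, and the difference was 0.19 (SE 0.06). Nlgn3 and Lrrtm3 were the 2 members of 9 without overlap, in opposite directions, where 17.8% of all genes had non-overlapping groups (11.3% lower and 6.59% higher). Nlgn3 lies on the X chromosome, and sex-linked signals differed between arrays as well. Xist, the RNA of the inactive X, read 9.77, 9.83 and 9.96 in knockout arrays, against 9.43, 9.36 and 9.92 in wild-type arrays. On the same arrays the Y-linked Eif2s3y read 7.73 to 8.16 in the knockout and 8.15 to 8.46 in the wild type. Uty, also Y-linked, read 7.63 to 7.77 in the knockout and 7.79 to 8.22 in the wild type. By mean signal Xist lay at percentile 94.2, Eif2s3y at 71.2 and Uty at 65.6, so every array gave Xist and Y-linked signal together. Whether the samples were pools of both sexes was not tested. When the Y-linked level was a covariate, Nlgn3 stood at 0.28 (SE 0.10).

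Nlgn1, the neuroligin of excitatory synapses, read 6.82, 6.48 and 6.79 in knockout arrays, against 6.38, 6.48 and 6.51 in wild-type arrays. Knockout replicates 1 and 3 were high, while knockout replicate 2 equalled wild-type replicate 2, and the difference was 0.24 (SE 0.09). Nlgn2, the neuroligin of inhibitory synapses, had the smallest difference of the 3, with signals of 8.29, 8.38 and 8.21 in knockout arrays, against 8.33, 8.28 and 8.32 in wild-type arrays. Its difference was -0.02 (SE 0.06) with a 95% interval from -0.16 to 0.12, and the wild-type arrays lay inside the range of the knockout arrays.

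The split among the knockout arrays seen in Nlgn1 was also that of the astrocyte and central glia markers. That list held Gfap, Aqp4, Slc1a2, Aldh1l1 and the oligodendrocyte-lineage genes Olig1 and Olig2. It deviated by 0.31, -0.19 and 0.27 in knockout replicates 1, 2 and 3, against -0.08, -0.09 and -0.21 in wild-type arrays. All 6 of its genes were higher on average in the knockout, none was called, none had non-overlapping groups, and their summed log2 signal ran from 45.36 to 48.38 in knockout arrays, against 45.24 to 46.01 in wild-type arrays. Aqp4, a water channel gene of that list, read 9.69, 8.84 and 9.55 in knockout arrays, against 8.93, 8.91 and 8.72 in wild-type arrays. Which cells gave these signals was not tested. The 9 measured Schwann cell and oligodendrocyte markers did not share that split as a list, with mean deviations of -0.03, -0.05 and 0.14 in knockout replicates 1, 2 and 3, against -0.01, -0.03 and -0.02 in wild-type arrays. Within the list Mag, Mog and Mobp did share it, with knockout replicates 1 and 3 above every wild-type array and knockout replicate 2 not. The other measured members did not. The median difference of the list was 0.02, with 3 lower and 6 higher and none called. The 6 astrocyte and central glia genes, Mag, Mog and Mobp were then averaged as a covariate, chosen after the data had been seen. With it, Nlgn1 stood at 0.10 (SE 0.09) and Lrrtm2 at 0.20 (SE 0.16). The covariate genes share the split of Nlgn1, so its smaller value follows from their choice and is no separate result. The part of central glia content in either value was not tested. In that fit Nlgn3 stood at 0.20 (SE 0.08), Lrrtm3 stood at -0.56 (SE 0.08), and Lrrtm3 was without its call (adjusted p = 0.228).

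**Figure D4:**
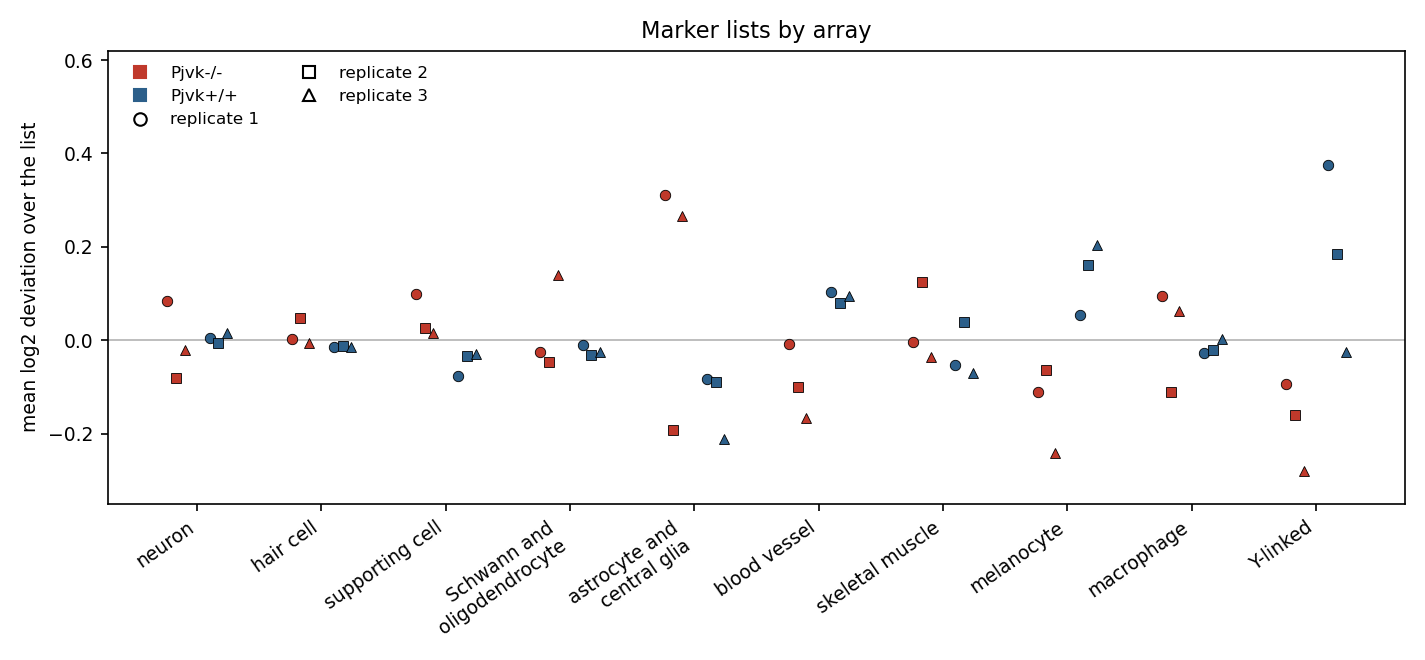
Mean log2 deviation of each marker list on each array from its 6-array mean, knockout left of wild-type, symbols for replicates. The astrocyte and central glia list is high in knockout replicates 1 and 3 (0.31 and 0.27). The vessel and Y-linked lists have lower means in the knockout with no gene called, the melanocyte mean rests on Dct (-1.86), and the neuron list is centred near 0 in each genotype.

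The neurexins that were measured showed no genotype difference beyond their spread. Nrxn2 read 8.08, 7.93 and 8.07 in knockout arrays, against 7.93, 8.08 and 7.97 in wild-type arrays, a difference of 0.03 (SE 0.07) with a 95% interval from -0.12 to 0.19. Nrxn3 read 7.19, 6.62 and 6.77 in knockout arrays, against 6.69, 6.79 and 7.03 in wild-type arrays, a difference of 0.02 (SE 0.14). Its arrays varied widely within each genotype, with a pooled SD of 0.24 at percentile 98.6 of all genes and an interval from -0.31 to 0.35. Knockout replicate 1, which had the highest neuron marker mean, was the highest array for Nrxn3, Lrrtm1, Nlgn1 and Nlgn3. Over the 9 genes, 4 differences were below 0 and 5 above, with a median of 0.02, and over all genes 53.9% were below 0, with a median of -0.01. The list as a whole therefore had no common direction.

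The wider set of synaptic adhesion partners held no difference as large as that of Lrrtm3. Of 114 listed genes, 106 were measured, 50 lower and 56 higher in the knockout, with a median of 0.005 against -0.01 over all genes. In limma 0 of 106 passed the adjusted test in either direction, against 0.0351% of all genes, and 16 of 106 (15.1%) had an unadjusted p under 0.05, against 12.4% of all genes. The groups did not overlap in 19 of them (17.9%), close to the 17.8% of all genes. When limma used an intensity trend with robust priors it called 2 of them, both lower, Adgrl4 and Ntng1.

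The ligands and regulators of neurexins leaned to neither side, with 11 of 23 measured genes lower and 12 higher and a median of 0.01. Nxph3, a neurexophilin that binds alpha-neurexins, read 6.38, 6.48 and 6.37 in knockout arrays, against 6.02, 6.22 and 6.16 in wild-type arrays, a difference of 0.28 (SE 0.07, adjusted p = 0.215). C1ql1, a secreted synapse organiser of the C1q family, differed by 0.23 (SE 0.08, adjusted p = 0.317). Cbln1, a cerebellin that bridges neurexins and delta glutamate receptors, read 6.45, 6.06 and 6.93 in knockout arrays, against 5.95, 6.06 and 6.04 in wild-type arrays. Knockout replicates 1 and 3 were high, as for the astrocyte and central glia genes, and the difference was 0.46 (SE 0.18, adjusted p = 0.358). Grid1, the delta-1 receptor subunit, differed by 0.17 (SE 0.07, adjusted p = 0.386).

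Genes of the LAR-type receptor phosphatases and their ligands, a second set of synapse organisers, were lower in 12 and higher in 10 of 22 measured genes, with a median of -0.04. Ntng1, netrin-G1, a lipid-anchored presynaptic partner of NGL-1, read 8.74, 8.91 and 8.91 in knockout arrays, against 9.23, 9.12 and 9.09 in wild-type arrays. The groups did not overlap, and the difference was -0.29 (SE 0.07, adjusted p = 0.209). Il1rapl2, a relative of the interleukin-1 receptor accessory protein, and Lrfn5, a leucine-rich repeat ligand of such phosphatases, differed by -0.26 (SE 0.08) and -0.16 (SE 0.06), and Slitrk5 by 0.19 (SE 0.07). Their adjusted p-values in limma ran from 0.287 for Il1rapl2 to 0.353 for Lrfn5 and Slitrk5. Il1rapl2 was dim, at percentile 3.96 by mean signal.

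Latrophilins, teneurins and FLRT proteins form a further trans-synaptic complex, and 7 of their 15 genes were lower and 8 higher, with a median of 0.01. Adgrl4, a relative of the latrophilins that marks endothelium, read 7.89, 7.88 and 7.72 in knockout arrays, against 8.21, 8.17 and 8.09 in wild-type arrays, a difference of -0.33 (SE 0.07, adjusted p = 0.177). The vessel markers differed in the same direction, as given beside Lrrtm3, and the part of vessel content in the Adgrl4 value was not tested. Tenm1, dim at percentile 15.9 by mean signal, differed by -0.17 (SE 0.05, adjusted p = 0.306) and Tenm4 by 0.21 (SE 0.07, adjusted p = 0.331). Tenm2 stood at 0.11 (SE 0.07) and Tenm3 at 0.05 (SE 0.06), so among the teneurins only the dim Tenm1 was lower. The SynCAM gene Cadm3 differed by -0.19 (SE 0.07, adjusted p = 0.343), while Cadm1 and Cadm4 stood at 0.003 and 0.05.

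On the postsynaptic side, the scaffolds and glutamate receptors that LRRTM and neuroligin proteins work with were near 0 as lists. Of 22 measured scaffold genes 11 were lower and 11 higher, with a median of -0.005. Lin7a, of the presynaptic and postsynaptic Cask complex, had the smallest p, at -0.15 (SE 0.05, adjusted p = 0.344), followed by Magi3 at -0.14, Shank3 at 0.18 and Dlgap3 at -0.12 (SE 0.06, 0.09 and 0.06). Of 18 AMPA and NMDA receptor genes 7 were lower and 11 higher, with a median of 0.01. Cacng2, which encodes the AMPA receptor partner stargazin, read 8.38, 8.33 and 8.30 in knockout arrays, against 8.47, 8.48 and 8.61 in wild-type arrays, a difference of -0.18 (SE 0.06, adjusted p = 0.317). Gria2, the AMPA receptor subunit that sets calcium permeability, differed by -0.20 (SE 0.11), with knockout replicate 1 at 9.09 above the wild-type arrays at 8.98 to 9.08. Cacng4 and Cnih3, further AMPA receptor partners, both stood at 0.14 (SE 0.08 each).

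**Figure D5:**
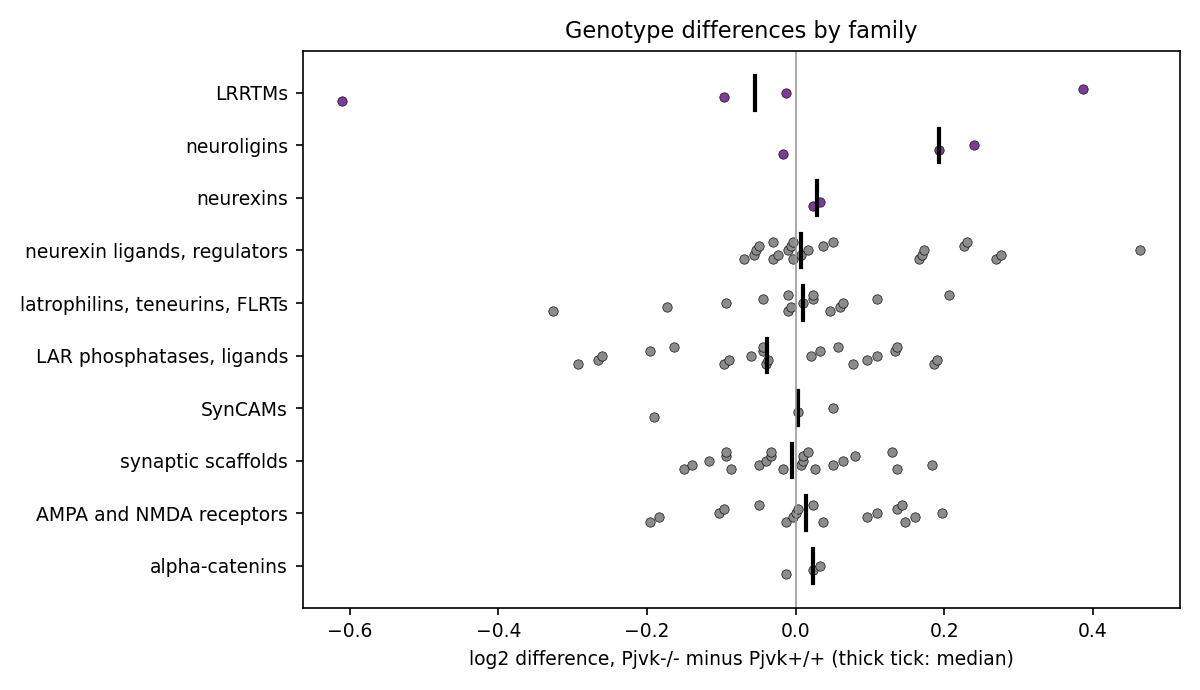
Log2 difference of each measured gene, knockout minus wild-type, by family (points, spread vertically for legibility), with the median of each family as a thick tick. Lrrtm3 at -0.61 lies below every gene of the partner lists, which run from -0.33 to 0.46.

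The genes whose pattern over the 6 arrays was most like that of Lrrtm3 were of other kinds. Likeness was the root mean square difference between a gene's deviations from its own mean and those of Lrrtm3, over genes at or above the median level. Qpct, a glutaminyl cyclase, was closest at 0.07, with 6.90 ± 0.11 in knockout arrays, against 7.58 ± 0.05 in wild-type arrays (SD, n = 3 each). Oasl2, an interferon-induced gene, followed at 0.07 and Neb, the sarcomere protein nebulin, at 0.08. Of the 13 skeletal muscle markers, Neb and Ttn were lower in the knockout and the other 11 higher, with a median difference of 0.14. Ttn was called, at -0.95 (adjusted p = 0.00206 in limma). The groups did not overlap in 7 of the 13 (53.8%), 2 lower and 5 higher, against 17.8% of all genes. Neb and Ttn lie on chromosome 2, as does Pjvk, and what that position contributes was not tested. Clrn2, a clarin of hair cells, was at 0.10 with 6.87 ± 0.06 in knockout arrays, against 7.32 ± 0.13 in wild-type arrays (SD, n = 3 each), and Irgm1, an interferon-induced GTPase, at 0.10 with 6.98 ± 0.10 in knockout arrays, against 7.49 ± 0.17 in wild-type arrays (SD, n = 3 each). None of these 5 genes belongs to the synaptic lists. Each was lower in the knockout, with differences between -0.68 and -0.45. That direction follows from their choice by likeness to Lrrtm3 and is no separate result.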

How the data were processed

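Total RNA of 6 organ of Corti samples was read on Affymetrix mouse gene ST arrays. The deposited values are log2 signals per probe set, made with Affymetrix Expression Console per the submitters' processing notes. How background was corrected and probes summarized and normalized is not stated by the labels. Array medians lay between 6.66 and 6.69, so values were used as deposited.

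Of 35557 probe sets, 21789 had 1 symbol in the platform annotation, 1621 had several and 12147 were not listed. Symbols of 21698 were updated through gene identifiers of GRCm38.p6. The probe set with the highest mean was kept, leaving 19938 genes. The genotype comparison used lmFit and eBayes of limma 3.58.1 (R 4.3.3; 4 residual and 4.59 prior degrees of freedom), Benjamini-Hochberg over all genes, called under 0.05. The fit was tested on simulated data. The number of arrays limits precision.

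Members and lists were chosen with earlier results of these data known. Named genes were all members, Pjvk, up to 4 genes of smallest unadjusted p per list, the alpha-catenin and Y-linked genes, and the 5 genes most like Lrrtm3, leaving out predicted genes; Xist was added after its values were seen. Alternatives were filters, normalizations, probe set rules, priors, covariates, a replicate block and omitted arrays.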

Additional observations from a re-analysis of the deposited data

How the results depend on the processing

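Over 18 alternatives (17 for Lrrtm1, Lrrtm2, Nlgn1 and Nrxn3, which lie below the median level) the difference of Lrrtm3 stayed between -0.65 and -0.51 and its call held in 9. It was lost with all probe sets in the fit (-0.61, adjusted p = 0.197), the Y-linked covariate (-0.51), the replicate block (-0.61, adjusted p = 0.101), the central glia covariate chosen after seeing the data (-0.56), and 5 of the 6 omissions, over which the value ran from -0.65 to -0.58. The number of members called lower was accordingly 0 in these and 1 otherwise, 0 to 1 over the omissions, and no member was called higher in any. The same-numbered arrays did not deviate together (correlations of 0.08, 0.02 and -0.01). The labels state no pairing, and with 3 arrays per genotype these correlations cannot show whether there was any. The replicate block left 1 gene called lower. Over all genes, 7 were called lower and 0 higher, against 18 and 2 with the filter at the 25th percentile, 42 and 3 at the median, 18 and 0 after centring, 1 and 0 with all probe sets, 100 and 12 with the intensity trend and robust prior, 0 and 0 with the Y-linked covariate, 17 and 2 relative to neuron markers and 3 and 1 with the glia covariate. With 1 array left out, 2 to 6 genes were lower and 0 to 1 higher. Among the partners 2 were called lower with the trend and robust prior and 0 otherwise. No scaling moved the median of all genes by over 0.1. Lrrtm2, Nlgn1 and Nlgn3 stayed above 0 throughout, while Lrrtm1, Lrrtm4, Nlgn2, Nrxn2 and Nrxn3 lay on either side of 0. The causes were not tested.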
